A study of Sus scrofa with 6 samples.

Results

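Collagens are the secreted and membrane-bound proteins with a triple-helical part that make up much of the extracellular matrix. The genes described here are the 38 whose symbol in the deposited gene table has the form COL, a number, A and a number, out of 30477 genes in that table. Membership goes by name alone, and the family itself was chosen with earlier results of these data known. Most collagen molecules are built from chains of 1 gene or of a few, so a gene here stands for a chain and not for a whole collagen. The type I, III, V and XI chains form banded fibrils, the type IV chains form the sheet of the basement membrane, type VI forms beaded filaments, and the FACIT chains (fibril-associated collagens with interrupted triple helices) sit on the surface of fibrils. In the brain, fibrillar collagens are mainly made by cells of the meninges and blood vessel walls, while neurons and glia lie against basement membranes and make several of the membrane-bound and minor collagens. Collagen chains are hydroxylated on proline in the endoplasmic reticulum by enzymes that need ascorbic acid.

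The libraries came from porcine midbrain-like organoids, grown from the embryonic stem cell line IVF_1_ pESC_FIW and taken on D11, D28 and D45 of culture, with 2 libraries (A and B) on each day. All organoids began as embryoid bodies patterned with SB431542, Noggin, SHH-C24II and CHIR99021, then with FGF8 alone, then with FGF8, BDNF and ascorbic acid together. Between D11 and D28 they were embedded in Matrigel, a basement membrane extract that itself holds type IV collagen protein, and the later medium held BDNF, GDNF, ascorbic acid, db-cAMP and DAPT. All 6 libraries rest on 1 line, so they carry no variation between animals, and a gelatin step was used to take away the mouse feeder cells before the embryoid bodies were made. The study calls A and B biological duplicates, and the labels do not say whether they were separate cultures, so each p-value measures only the spread between these libraries. RNA was read with the 10x GEM-X 3' v4 assay, which counts unique molecular identifiers (UMIs) near the 3' end of a transcript. Levels are in CPM (counts of UMIs per 1000000 UMIs summed over the same cells), with the value of library A before that of library B. CPM of a 3' assay does not grow with transcript length, though the capture of each gene's 3' end differs, so levels of different genes are compared only loosely.

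After filtering, 13954 to 21615 cells were kept per library, 103519 in all, with 106851387 to 180098372 UMIs per library and a median of 2240 to 10741 UMIs per cell, lowest on D45. Pairs of libraries shared 55 to 119 cell barcodes, 0.388 to 0.65% of the smaller library. The libraries are labelled as midbrain dopaminergic neurons. All 7 dopaminergic markers examined were detected in every library, at a summed 95.3 to 211 CPM, but the defining transporter SLC6A3 stood at only 0.294 to 2.56 CPM and PITX3 at 0.0821 to 0.299 CPM, and no gate or test here rests on that label. The D28 libraries stood apart from each other: A held 581 fibroblast-like cells and B 46, and values for D28 are therefore given for each library.

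In whole organoids the summed collagen level was highest on D45, and D28 replicate B lay close to the D11 libraries. The summed level of the 38 members was 931 and 915 CPM (D11), 1689 and 974 CPM (D28) and 1737 and 3739.5 CPM (D45). The make-up changed as well as the sum. The 10 fibrillar members went from 249.7 ± 9.32 CPM (SD, n = 2) on D11 to 1793 ± 1099 CPM (SD, n = 2) on D45, and the 6 beaded filament and related members from 12.1 ± 0.793 to 269 ± 140.4 CPM (SD, n = 2). Of the latter sum COL26A1, which is no type VI chain, gave 7.49 ± 0.462 CPM on D11 and 18.4 ± 4.55 CPM on D45 (SD, n = 2). The 3 short-chain members went the other way, from 165 ± 6.29 to 33.3 ± 15.4 CPM (SD, n = 2). The 14 fibroblast markers, here and below with the member COL1A1 among them, summed to 98.5 and 95.2 CPM (D11), 952 and 239 CPM (D28) and 614 and 1318 CPM (D45) in the same libraries. COL1A1 counts in both sums, with 2.04 and 1.44 CPM (D11), 209 and 33.1 CPM (D28) and 177 and 563 CPM (D45). The part of the fibroblast markers in these changes was not tested. These sums of all cells cannot tell a change in the number of cells of a type from a change in RNA per cell.

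Between D11 and D45, 19 of the 37 members that could be fitted were higher and 8 lower in edgeR's quasi-likelihood test at an adjusted p of 0.05, where 17.3% of all genes tested were higher and 17.4% lower. The median log2 fold change of the fitted members was 1.06, against -0.01 over all genes fitted. By group, 5 of 10 fibrillar members were higher and 2 lower, 2 of 5 type IV members were higher and 2 lower, 4 of 6 beaded filament and related members were higher and none lower, and 5 of 8 FACIT members were higher and 2 lower. Among the 4 transmembrane members 2 were higher and 1 lower, of the 2 multiplexin members 1 was higher, and of the 3 short-chain members 1 was lower and 1, COL10A1, had too few UMIs to be fitted. Between D11 and D28, 12 members were higher and 9 lower (12.5% of all genes tested were higher and 10.6% lower), with a median log2 fold change of 0.57 over the fitted members and 0.03 over all genes. Between D28 and D45, 5 were higher and 2 lower (4.51% of all genes tested were higher and 4.95% lower). The 7 calls between D28 and D45 became 0 without D45 replicate A, 1 without D45 replicate B, 18 without D28 replicate A and 15 without D28 replicate B. The 21 calls between D11 and D28 became 5 without D11 replicate A and 7 without D11 replicate B, and the 27 calls between D11 and D45 became 17 without D11 replicate B.

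**Figure D1:**
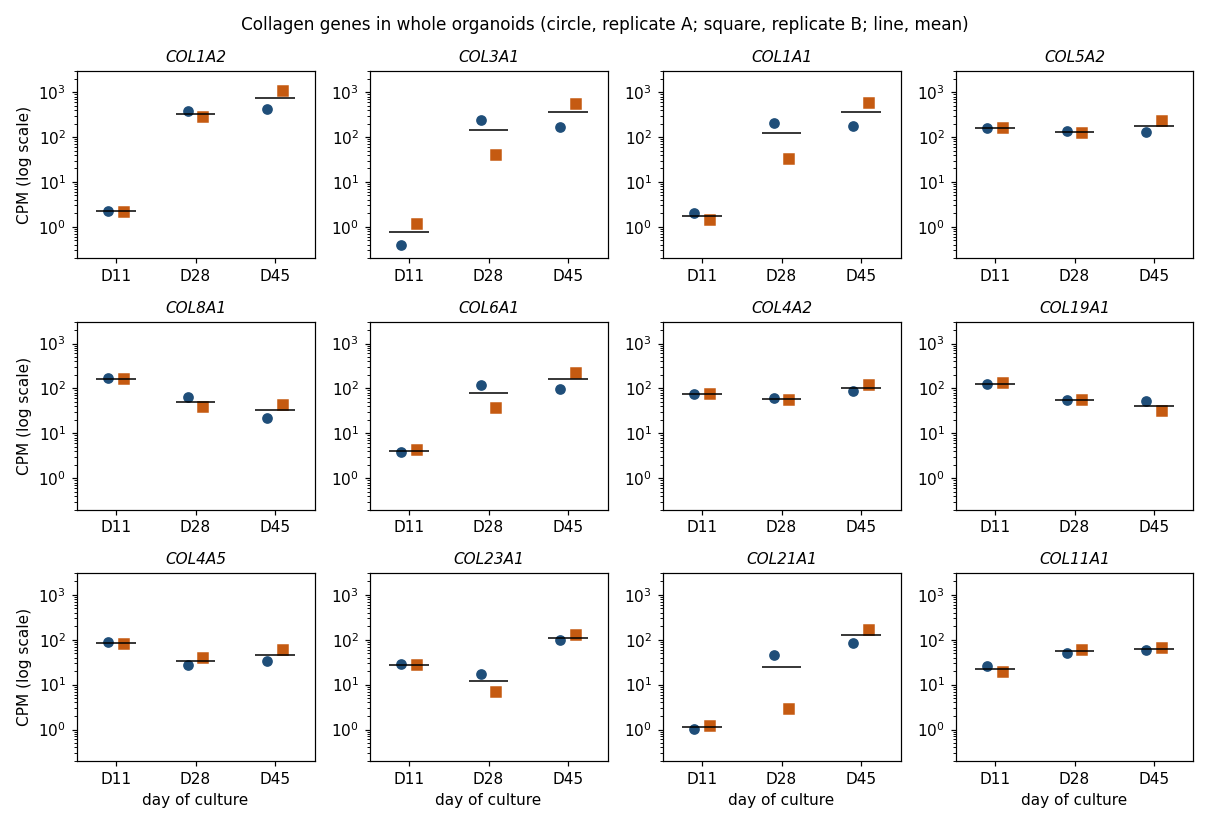
CPM of the 12 collagen genes with the highest mean level in whole organoids, on a log axis, against day. Circles are replicate A, squares replicate B and lines the mean of the 2 libraries. COL1A2, COL3A1 and COL1A1 lie at or under 2.31 CPM on D11 and at or above 33.1 CPM afterwards, and the D28 squares of COL1A1, COL3A1 and COL21A1 lie far below the circles.

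The 3 most abundant members were chains of the main fibrils, and all were close to absent on D11. COL1A2 (ENSSSCG00000015326, Sscrofa11.1 chr9:74174484-74210407, plus strand), the alpha 2 chain of type I collagen, had 2.31 and 2.16 CPM (D11), 376 and 281 CPM (D28) and 419 and 1069 CPM (D45). COL1A1 (chr12:26379087-26397180, minus strand), the alpha 1 chain of the same collagen, had 2.04 and 1.44 CPM (D11), 209 and 33.1 CPM (D28) and 177 and 563 CPM (D45). COL3A1 (chr15:93556914-93595678, plus strand), the only chain of type III collagen, had 0.392 and 1.16 CPM (D11), 246 and 40 CPM (D28) and 169 and 557 CPM (D45). For each of the 3 genes every D28 and D45 library lay above both D11 libraries, and for COL1A1 and COL3A1 the 2 D28 libraries differed severalfold. From D11 to D45 COL1A2 rose with a log2 fold change of 7.99 ± 0.61, SE, edgeR adjusted p = 0.000351, COL1A1 with a log2 fold change of 7.35 ± 1.16, SE, edgeR adjusted p = 0.00384, and COL3A1 with a log2 fold change of 8.46 ± 1.32, SE, edgeR adjusted p = 0.00368. None of the 3 passed the test between D28 and D45: the log2 fold changes were 1.03 ± 0.46, 1.39 ± 0.89 and 1.13 ± 0.96 (SE), with edgeR adjusted p of 0.175, 0.319 and 0.449.

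The 250 bases before the RefSeq gene start of the 2 type I chains are shown because their levels both rose in whole organoids and parted between cell groups, as described further on. The windows are COL1A1 at chr12:26397181-26397430 on the minus strand and COL1A2 at chr9:74174234-74174483 on the plus strand of Sscrofa11.1, each read 5′ to 3′ along the gene, with matches to CCAAT on either strand in capitals.
COL1A1: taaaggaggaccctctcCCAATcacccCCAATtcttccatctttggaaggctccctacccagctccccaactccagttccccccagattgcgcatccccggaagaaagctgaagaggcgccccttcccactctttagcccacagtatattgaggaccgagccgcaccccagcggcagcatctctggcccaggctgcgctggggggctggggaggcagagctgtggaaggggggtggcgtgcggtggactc
COL1A2: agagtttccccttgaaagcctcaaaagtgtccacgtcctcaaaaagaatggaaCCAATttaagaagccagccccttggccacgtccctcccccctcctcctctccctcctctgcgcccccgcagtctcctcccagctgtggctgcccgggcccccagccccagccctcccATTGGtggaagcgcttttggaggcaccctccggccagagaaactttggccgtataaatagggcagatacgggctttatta
COL1A1 and COL1A2 each had 2 CCAAT matches, and GC content was 62.8 and 58.8%. CCAAT on either strand stood in 31.9% of the same windows of 19556 protein-coding genes and in 15 of the 37 members with a position. TATAAA, in 9.77% of all windows and 8 of the 37 members, matched in COL1A2 and not in COL1A1, and GGGCGG, in 45.9% of all windows and 18 of the 37, in neither. The annotated start may differ from the start used in these cells.

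Other fibril chains were present from the start. COL5A2 (minus strand of chr15, 16177 bases from COL3A1, tail to tail), a chain of the type V collagen that sets fibril width, had 163 and 163 CPM (D11), 136 and 123 CPM (D28) and 129 and 224 CPM (D45). It did not pass the test in any comparison of days in whole organoids. COL11A1, a chain of the related type XI collagen, had 26.2 and 19.6 CPM (D11), 51.7 and 59.8 CPM (D28) and 60.2 and 66.1 CPM (D45), and rose from D11 to D45 (log2 fold change of 1.06 ± 0.18, SE, edgeR adjusted p = 0.00551). That call was lost without D11 replicate B. COL5A1 rose from a mean of 10.6 ± 1.45 CPM (SD, n = 2) on D11 to 41.9 ± 17.9 CPM (SD, n = 2) on D45, a call that was lost without D11 replicate A, D11 replicate B or D45 replicate B. COL27A1 stayed between 14.7 and 24.6 CPM in all libraries and was not called. COL2A1, the fibril chain of cartilage, fell from D11 to D45 by 1.82 on the log2 scale, from 22.4 and 18.9 to 7.14 and 8.3 CPM. COL5A3 fell by 1.23, and COL11A2 lay at 0.384 to 3.28 CPM without a call. The COL5A3 call was lost without D11 replicate A, D11 replicate B or D45 replicate A.

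The 2 abundant beaded filament chains also rose. COL6A1, the alpha 1 chain of type VI, had 3.87 and 4.23 CPM (D11), 118 and 37.5 CPM (D28) and 98.2 and 223 CPM (D45), and COL6A3, its long alpha 3 chain, went from 0.158 and 0.128 to 55.3 and 123 CPM between D11 and D45. From D11 to D45 they rose on the log2 scale by 4.91 ± 0.72 and 8.89 ± 1.23 (SE). COL6A2, which completes the molecule, was not analysed here. COL6A5 and COL6A6, the further type VI chains that lie 43574 bases apart on chr13, stayed at or under 0.825 CPM, and their calls as higher rest on few UMIs. COL26A1 lay at 7.16 to 23.5 CPM and COL28A1 at 0.157 to 0.384 CPM, and neither was called.

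Among the FACIT chains, which decorate fibrils, COL21A1 had 1.04 and 1.18 CPM (D11), 46.8 and 2.86 CPM (D28) and 83 and 168 CPM (D45). COL12A1 and COL14A1, 2 chains of fibril surfaces in dense connective tissue, rose by 3.01 ± 0.31 and 3.80 ± 0.77 (log2, SE) from D11 to D45. The COL14A1 call was lost without D11 replicate B or D45 replicate B. COL9A3 rose by 4.27 ± 0.46 (log2, SE) by D28, from 0.392 and 0.311 to 9.7 and 6.18 CPM, and COL16A1 by 1.62 ± 0.35 by D45. The COL16A1 call was lost without D11 replicate A, D11 replicate B or D45 replicate B. COL9A1, a partner of COL9A3 in type IX collagen, moved the other way: it fell from 23.9 and 23.8 CPM on D11 to 1.33 and 1.97 CPM on D45 (log2 fold change of -4.25 ± 0.32, SE, edgeR adjusted p = 0.000338). Its neighbour COL19A1, 1098 bases away with the 2 genes end to end on chr1, had 122 and 135 CPM (D11), 54.4 and 55.4 CPM (D28) and 51.8 and 31 CPM (D45) and fell as well (log2 fold change of -2.06 ± 0.25, SE, edgeR adjusted p = 0.00145). COL22A1 stayed between 2.97 and 4.61 CPM.

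The short-chain and membrane-bound collagens divided by day. COL8A1, a network-forming chain of vessel walls and the cornea, had 169 and 159.9 CPM (D11), 63.6 and 38.5 CPM (D28) and 21.8 and 42.9 CPM (D45) and fell from D11 to D45 (log2 fold change of -2.74 ± 0.43, SE, edgeR adjusted p = 0.00386). COL13A1, a membrane collagen of the neuromuscular junction, fell from 33.8 and 46.1 to 2.69 and 3.45 CPM (log2 fold change of -4.11 ± 0.28, SE, edgeR adjusted p = 0.000285). COL23A1, another membrane collagen, had 28.6 and 27 CPM (D11), 17.4 and 6.9 CPM (D28) and 99.2 and 125 CPM (D45), with both D45 libraries above all others and both D28 libraries below all others. Its rise from D11 to D45 (log2 fold change of 1.60 ± 0.46, SE, edgeR adjusted p = 0.0331) depended on fibroblast-like cells being kept: the log2 fold change was 0.45 without them, which lost the call, and -0.69 without cells with a UMI of LUM or DCN. The call was also lost without any 1 of the D11 or D45 libraries. COL25A1, a membrane collagen of neurons, had 5.42 and 3.33 CPM (D11), 7.4 and 11.4 CPM (D28) and 17.2 and 12.7 CPM (D45) and rose from D11 to D45 (log2 fold change of 1.36 ± 0.29, SE, edgeR adjusted p = 0.0122). That call was lost without D11 replicate B and without D45 replicate A. COL18A1, whose end fragment is endostatin, fell from D11 to D28 by 1.84 on the log2 scale, from 41.1 and 40.9 to 18 and 8.67 CPM. The COL18A1 call was lost without either D11 library. COL15A1, COL17A1 and COL8A2 were at or under 6.42 CPM in every library, and COL10A1, the collagen of hypertrophic cartilage, at or under 0.0873 CPM.

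**Figure D2:**
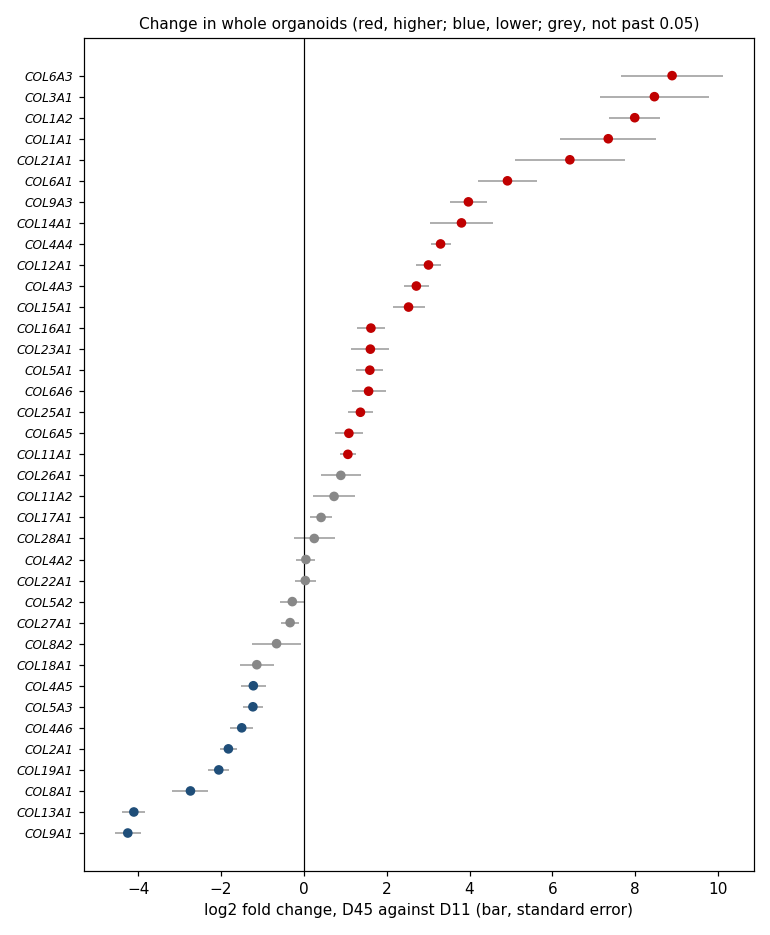
Log2 fold change from D11 to D45 in whole organoids for the 37 fitted collagen genes, with bars for 1 standard error. Red points passed the test as higher, blue as lower and grey did not pass. COL6A3 (8.89), COL3A1 (8.46) and COL1A2 (7.99) lie at the top and COL9A1 (-4.25) and COL13A1 (-4.11) at the bottom.

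Cells were then sorted by marker UMIs. A cell counted as fibroblast-like with at least 2 UMIs of each of COL1A1, LUM and DCN, and as CORIN-positive, AQP4-positive or STMN2-positive with at least 2 UMIs of that gene. Cells that passed more than 1 gate were left out. CORIN is a protease on floor plate cells, AQP4 the water channel of astrocytes and STMN2 a neuronal protein of microtubules. The gates held 1210, 11915, 991 and 34638 cells. By day, fibroblast-like cells numbered 0 and 3 (D11), 581 and 46 (D28) and 177 and 403 (D45), and AQP4-positive cells 0 and 0, 16 and 8, and 402 and 565. CORIN-positive cells numbered 80 and 183 on D45. Sums of fewer than 20 cells were not tested. On D45 the 14 fibroblast markers of the files summed to 7105 and 8532 CPM in the fibroblast-like cells, of which LUM, DCN and COL1A1 chose the cells, and to 234 and 427 CPM in STMN2-positive cells. The 8 neuron markers summed to 3475 and 4252 CPM in STMN2-positive cells and 330.2 and 302 CPM in fibroblast-like cells, and the 7 astrocyte markers to 2476 and 2231 CPM in AQP4-positive cells. STMN2, AQP4 and CORIN, which chose the cells, count in the neuron, astrocyte and floor plate sums here and below. The gates themselves therefore raise these sums. The 8 floor plate markers summed to 7351 and 5936 CPM in CORIN-positive cells on D11 and 2970.1 and 2107 CPM on D45, when the same cells also held 675 and 1706 CPM of fibroblast markers. The part of fibroblast RNA in the D45 CORIN-positive values was not tested. Over all libraries with such cells, also the 3 of D11 replicate B, 7 pericyte and smooth muscle markers summed to 85.7 to 709 CPM in fibroblast-like cells. They summed to 37.9 to 78.3 CPM in CORIN-positive, 54.15 to 127 CPM in AQP4-positive and 14 to 24.1 CPM in STMN2-positive cells. The part of vessel wall cells in the fibroblast-like gate was not tested.

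More fitted members were called higher than lower in fibroblast-like cells against each other gate. Against STMN2-positive cells of the same D28 and D45 libraries, 22 of 35 fitted members were higher and 6 lower, where 24.5% of all genes tested were higher and 29.7% lower. The median log2 fold change of the fitted members was 2.76, against -0.11 over all genes fitted. Against AQP4-positive cells 20 were higher and 8 lower (16.6% of all genes tested were higher and 18.3% lower), and against CORIN-positive cells 18 were higher and 5 lower (19.1% of all genes tested were higher and 19.8% lower). Of the 18, COL19A1 lost its call in 7 alternatives, COL23A1 in 4, COL8A1 in 3 and COL26A1 in 1. COL1A1 is part of the gate and was not tested. AQP4-positive sums came from the D45 libraries alone. In fibroblast-like cells COL1A2 had 1249.8 and 3026 CPM on D28 and 2982 and 5423 CPM on D45, COL3A1 1748 and 3347 and 2650.2 and 4606 CPM, and COL6A1 642 and 952 and 1080.1 and 1323 CPM. These were the 3 highest members outside the gate by the mean over these 4 libraries, and COL23A1 lay above COL6A1 in D45 replicate A. Against STMN2-positive cells COL3A1 was higher by 6.68 ± 0.66 and COL6A3 by 6.69 ± 0.93 (log2, SE), with edgeR adjusted p of 8.45e-06 and 0.000108. COL21A1, COL6A1, COL18A1, COL23A1, COL8A1, COL5A1, COL12A1, COL16A1, COL13A1, COL5A2 and COL14A1 were higher by between 3.22 and 5.68. The members lower in fibroblast-like cells were COL4A4, COL4A3 and COL4A6 of type IV collagen together with COL11A2, COL22A1 and COL17A1, the last a chain of hemidesmosomes. Of these 6 only COL4A4 kept its call in all alternatives. COL4A6 lost it with the gate at 5 UMIs, with the gate on LUM and DCN only and without D28 replicate A, and turned to 0.72 with the gate on thinned cells. COL4A3 lost it with the gate at 1 or 5 UMIs, COL17A1 with the gate on thinned cells, COL22A1 and COL11A2 with the gate at 1 UMI and with 3 of the 4 libraries left out in turn, and COL22A1 also without the 5% deepest cells.

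**Figure D3:**
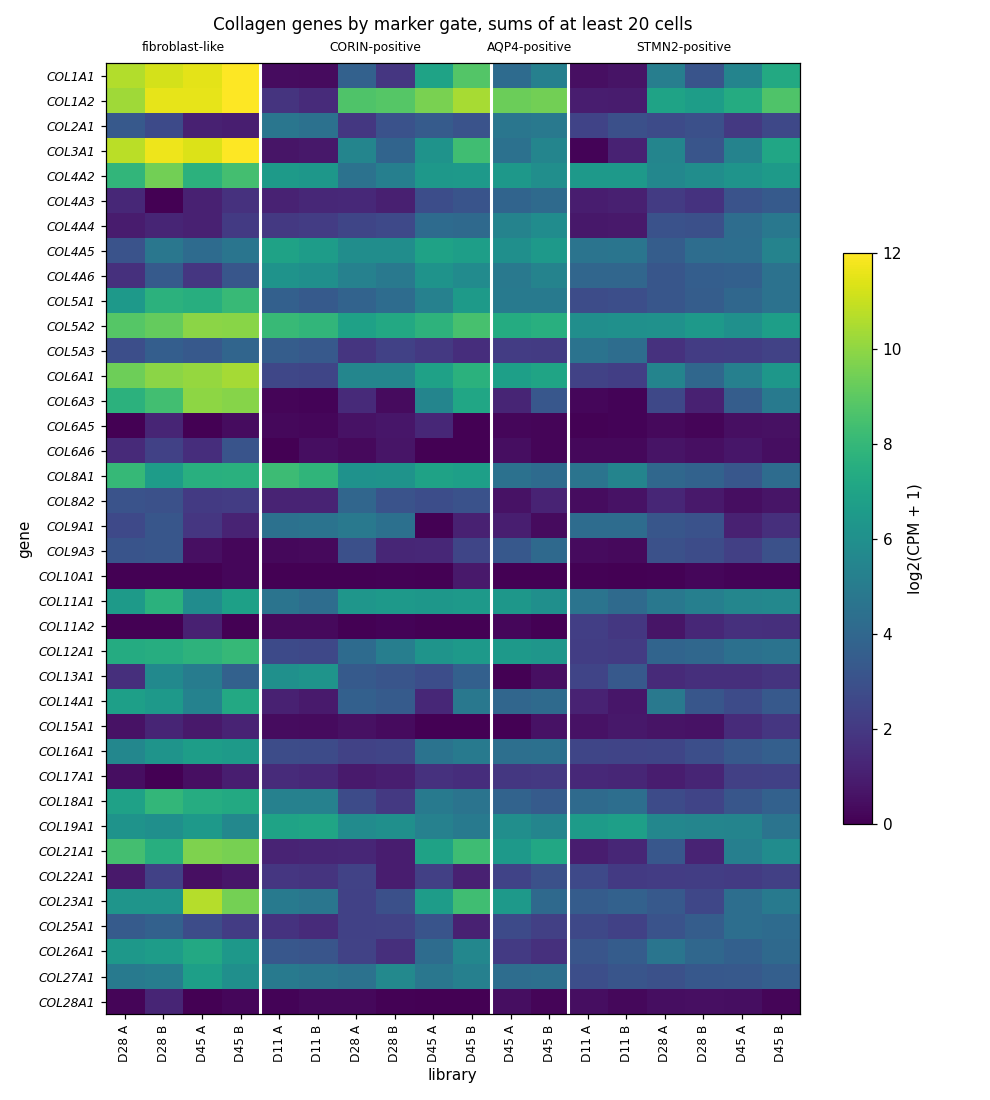
Levels of the 38 collagen genes as log2(CPM + 1) in each marker gate and library with at least 20 cells, with white lines between gates. COL1A1, COL1A2 and COL3A1 are brightest in the fibroblast-like columns, and COL1A2 stays bright in the D28 and D45 CORIN-positive and the AQP4-positive columns while COL1A1 does not in the D28 CORIN-positive and AQP4-positive ones.

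The 2 chains of type I collagen parted outside the fibroblast-like cells. In CORIN-positive cells COL1A2 had 2.45 and 1.77 CPM (D11), 417 and 452 CPM (D28) and 778 and 1399 CPM (D45), while COL1A1 had 0.323 and 0.295, 12.4 and 2.72 and 123 and 435 CPM. In AQP4-positive cells of D45 COL1A2 had 626 and 687 CPM and COL1A1 17.5 and 36.4 CPM. The fibroblast markers, with COL1A1 among them, summed to 469 and 424 CPM in the same cells. As a percentage of the level in fibroblast-like cells of the same library, COL1A2 stood there at 21 and 12.7% and COL1A1 at 0.600 and 0.886%. The fibroblast markers outside the gate and at 50 CPM or more in fibroblast-like cells had a median of 19.3 and 8.91%. These markers were spread widely, from 0.069% (MGP) to 48.6% (FBLN1) in replicate A and from 0.986% (PDGFRA) to 33.8% (FBLN1) in replicate B. In CORIN-positive cells COL1A2 stood at 33.4 and 14.9% on D28 and 26.1 and 25.8% on D45, and the marker median at 4.72 and 1.71% and 22.8 and 31.8%. The markers ran from 0.408 to 38.3% and from 0.212 to 36.9% on D28. On D45 they ran from 0 to 54.7% and from 23.8 to 57.2%. The part of fibroblast RNA in the COL1A2 level of these gates was not tested. In STMN2-positive cells COL1A2 had 0.95 and 0.902 CPM (D11), 123 and 102 CPM (D28) and 168 and 416 CPM (D45). By the mean over the libraries with at least 20 cells COL1A2 was the highest member in all 3 of these gates, though on D11 it was among the low ones. It was higher in CORIN-positive than in STMN2-positive cells (log2 fold change of 2.14 ± 0.22, SE, edgeR adjusted p = 1.75e-05) and higher in AQP4-positive than in STMN2-positive cells (log2 fold change of 1.48 ± 0.27, SE, edgeR adjusted p = 0.00141), a call that was lost without D45 replicate A (log2 fold change 1.04), and within CORIN-positive cells it rose from D11 to D28 (log2 fold change of 7.63 ± 0.43, SE, edgeR adjusted p = 0.000111).

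The ratio of COL1A2 to COL1A1 UMIs shows the parting within each library, with intervals that cover counting error only. In fibroblast-like cells it was 0.791 (95% interval 0.77 to 0.812) and 1.24 (95% interval 1.17 to 1.32) on D28 and 1.02 (95% interval 0.993 to 1.06) and 1.32 (95% interval 1.3 to 1.34) on D45. In CORIN-positive cells of D28 it was 33.6 (95% interval 29.2 to 38.9) and 166 (95% interval 131 to 214). In AQP4-positive cells of D45 it was 35.9 (95% interval 29.5 to 44.1) and 18.9 (95% interval 16.8 to 21.4). The gate itself asks for COL1A1 in fibroblast-like cells, the denominator of the ratio. Cells of the other gates that also passed the fibroblast-like gate were left out, which takes cells with COL1A1 from those gates and can raise their ratio. The ratio with those cells kept was not computed, so the size of the parting depends in part on the gates. With a gate on LUM and DCN only the ratio in fibroblast-like cells was 0.819 (95% interval 0.797 to 0.841) and 1.3 (95% interval 1.22 to 1.38) on D28 and 1.03 (95% interval 0.993 to 1.06) and 1.32 (95% interval 1.3 to 1.35) on D45. In CORIN-positive cells the ratio was lower on D45 than on D28, at 6.31 (95% interval 5.34 to 7.49) and 3.22 (95% interval 3.01 to 3.44). In STMN2-positive cells it was 3.65 (95% interval 3.46 to 3.86) and 13.4 (95% interval 12.2 to 14.9) on D28 and 4.03 (95% interval 3.86 to 4.2) and 2.65 (95% interval 2.59 to 2.72) on D45.

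The share of cells with a UMI was counted for both chains. The share expected in 2000 UMIs drawn from each cell, the thinned share, was also computed. For COL1A2 it was 40.6 and 35.4% of CORIN-positive cells on D28, 57.5 and 60.3% of AQP4-positive cells on D45 and 10.1 and 8.77% and then 10.4 and 21.5% of STMN2-positive cells on D28 and D45. For COL1A1 it was 1.6 and 0.508%, 2.51 and 5.59%, 3.03 and 0.636% and 2.09 and 6.58% of the same cells. Without thinning the COL1A2 shares were 75.4 and 70% in CORIN-positive cells on D28, 84.6 and 86% in AQP4-positive cells on D45 and 18.2 and 37.6% in STMN2-positive cells on D45, at median depths of 15325 and 16099, 14526 and 14371 and 5499.5 and 5980.0 UMIs. The thinned shares are of the cells with at least 2000 UMIs, which left out 39 and 37 CORIN-positive cells on D28, 50 and 64 AQP4-positive cells on D45, and 1397 and 603 and then 3201 and 2123 STMN2-positive cells on D28 and D45. No background share was measured for these chains, and how much of the share in any of the 3 gates is free RNA was not tested.

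**Figure D4:**
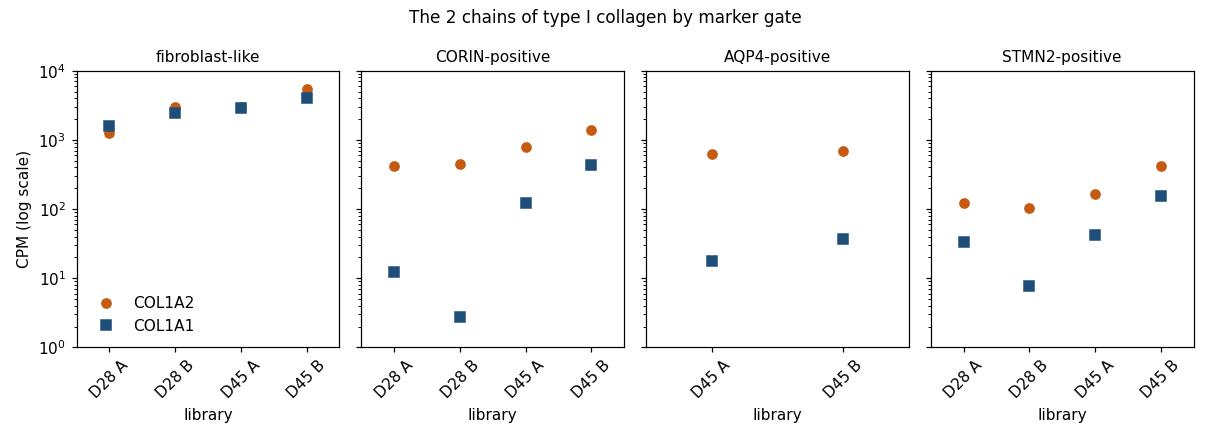
CPM of COL1A2 (circles) and COL1A1 (squares) on a log axis, in each marker gate and each D28 or D45 library with at least 20 cells. The 2 chains lie close together in fibroblast-like cells, and in CORIN-positive cells of D28 B they stand at 452 and 2.72 CPM.

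Fibroblast-like cells were 4.06 and 0.33% of the cells and 7.32 and 0.584% of all UMIs on D28 and held 55.3 and 43% of the COL1A1 UMIs, 52 and 48.9% of the COL3A1 UMIs and 54.7 and 48.4% of the COL6A3 UMIs, with COL1A1 fixed in part by the gate. Of the COL1A2 UMIs they held 24.4 and 6.29%. On D45 they were 0.872 and 2.17% of the cells and 2.16 and 4.78% of all UMIs and held 35.4 and 34.8% of the COL1A1, 33.9 and 39.5% of the COL3A1, 39.1 and 35.6% of the COL6A3 and 15.4 and 24.2% of the COL1A2 UMIs. These shares cover only cells that passed no other gate, 1210 over all libraries, where 1897 passed the fibroblast-like gate with or without another. The shares held by all cells that passed it are therefore larger. Leaving out every such cell, also those in more than 1 gate, COL1A1 was 50.5 and 15.9 CPM and COL1A2 271 and 262 CPM on D28. On D45 COL1A1 was then 74.7 and 244 CPM and COL1A2 319 and 670 CPM. Without every cell with a UMI of LUM or DCN, COL1A2 still had 152 and 193 CPM on D28 and 263 and 455 CPM on D45, and COL1A1 20.9 and 5.45 and 25 and 83 CPM.

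Type IV chains, which build basement membranes, differed in direction between cell groups. Their genes lie head to head in pairs: COL4A1 with COL4A2 on chr11 (overlap 525 bases), COL4A4 with COL4A3 on chr15 (overlap 663 bases) and COL4A6 with COL4A5 on chrX (207898 bases apart). COL4A1 is listed in the deposited table by its identifier only (ENSSSCG00000044700) and is named here through the reference, so it is no member. COL4A2 had 76 and 73.2 CPM (D11), 60 and 54.5 CPM (D28) and 85.6 and 118 CPM (D45) in whole organoids and COL4A5 87.7 and 78.4 CPM (D11), 27.2 and 40.2 CPM (D28) and 33.6 and 60.1 CPM (D45). On D45 COL4A2 had 209 and 345 CPM in fibroblast-like, 84.7 and 86.1 CPM in CORIN-positive, 82.1 and 59.3 CPM in AQP4-positive and 72.7 and 91.8 CPM in STMN2-positive cells, and COL4A1 106 and 177, 49.9 and 35.1, 48.3 and 35.2 and 20.1 and 24.5 CPM. On D28 COL4A2 had 240 and 692 CPM in fibroblast-like, 21.9 and 34.7 CPM in CORIN-positive and 46.3 and 57.9 CPM in STMN2-positive cells. No AQP4-positive sum of D28 had enough cells. In the fit over both days COL4A2 was higher in fibroblast-like cells than in each of the other gates, by 2.70 to 2.89 (log2). COL4A4, one of the chains known from kidney basement membranes, was lower in them than in each of the other gates: on D45 it had 1.17 and 3.13 CPM in fibroblast-like, 17.4 and 16.4 CPM in CORIN-positive, 40.7 and 55.8 CPM in AQP4-positive and 18.7 and 26.7 CPM in STMN2-positive cells. The fibroblast-like cells lay below AQP4-positive cells by 4.10 ± 0.26 (log2, SE; edgeR adjusted p = 3.99e-06). COL4A3, another such chain, was lower by the same test (log2 fold change of -2.50 ± 0.41, SE, edgeR adjusted p = 0.000754) and was not called against CORIN-positive cells.

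COL4A5 and COL4A6 were lower in fibroblast-like than in CORIN-positive cells, with log2 fold changes of -2.31 ± 0.24 and -3.29 ± 0.35 (SE). In CORIN-positive cells COL4A5 had 118 and 99.8 CPM (D11), 57.3 and 58.6 CPM (D28) and 121 and 106 CPM (D45). It was called lower on D28 than on D11 (log2 fold change of -0.96 ± 0.18, SE, edgeR adjusted p = 0.00793), a call that was lost without either D11 library, with the gate at 5 UMIs and with the gate on thinned cells. In whole organoids COL4A3 and COL4A4 rose from D11 to D45, COL4A4 from 1.91 and 2.29 to 24.2 and 30.5 CPM (log2 fold change of 3.30 ± 0.24, SE, edgeR adjusted p = 0.00032) and COL4A3 from 1.01 and 1.24 to 9.01 and 10.6 CPM, while COL4A5 and COL4A6 fell. The COL4A5 call was lost without D11 replicate A, D11 replicate B or D45 replicate A. The ratio of COL4A2 to COL4A1 UMIs on D45 was 1.96 (95% interval 1.69 to 2.28) and 1.96 (95% interval 1.82 to 2.11) in fibroblast-like cells and 3.61 (95% interval 3.39 to 3.84) and 3.75 (95% interval 3.53 to 3.99) in STMN2-positive cells, so the 2 chains of one molecule were not read at equal levels in either.

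**Figure D5:**
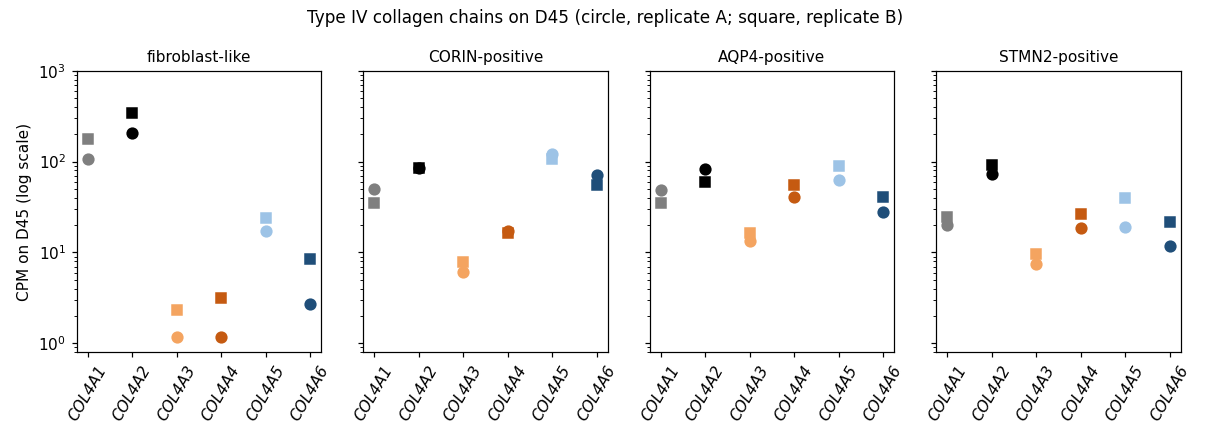
CPM on D45 of the 6 type IV chains on a log axis, in the 4 marker gates, with circles for replicate A and squares for replicate B. COL4A1 and COL4A2 are highest in fibroblast-like cells, and COL4A3, COL4A4 and COL4A6 are lowest there, while the COL4A5 points of fibroblast-like and STMN2-positive cells overlap.

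In CORIN-positive cells COL8A1 and COL5A2 were far above COL1A2 on D11. COL5A2 had 273 and 239 CPM (D11), 116 and 152 CPM (D28) and 213 and 360.4 CPM (D45), and COL8A1 302 and 229, 68.2 and 70.3 and 118 and 107 CPM. Together with COL1A2 these were the 3 highest non-gate members by the mean over the 6 libraries. The order differed by day: on D11 COL19A1 had 122 and 131 CPM, and on D45 COL21A1 had 121 and 304, COL23A1 99.9 and 318 and COL3A1 71.9 and 317 CPM. From D11 to D28 9 of 33 fitted members were higher and 11 lower (13.3% of all genes tested were higher and 11.2% lower). Markers of other kinds moved in the same cells from D11 to D28: the 4 mitotic markers summed to 811 and 803 and then 85.6 and 40.6 CPM, the floor plate markers to 7351 and 5936 and then 2769 and 4775 CPM, the fibroblast markers to 101 and 94.4 and then 487 and 229 CPM and the cartilage markers to 25.5 and 23.2 and then 422 and 117 CPM. Their part in the collagen changes was not tested. Among those lower were COL8A1 (-1.99 ± 0.21), COL13A1 (-3.02 ± 0.29), COL18A1 (-3.19 ± 0.35) and COL4A2 (-1.68 ± 0.21; log2, SE). Among those higher were COL1A2, COL3A1, COL6A1 (3.17 ± 0.31) and COL11A1 (1.90 ± 0.19). Against STMN2-positive cells 14 of 35 members were higher and 2 lower (22.8% of all genes tested were higher and 24.6% lower), with COL8A2 (3.67 ± 0.24) and COL8A1 (2.93 ± 0.29) highest by fold and COL11A2 and COL25A1 lower. COL8A1 and COL13A1 were also higher in D11 CORIN-positive than in D11 STMN2-positive cells by level, 64.3 and 72.8 against 4.46 and 9.1 CPM for COL13A1, which was not tested on that day.

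In AQP4-positive cells the 3 highest non-gate members were COL1A2, COL5A2 with 165 and 191 CPM and COL6A1 with 107 and 128 CPM on D45, by the mean over both D45 libraries. COL21A1, with 86.6 and 146 CPM, lay above COL6A1 in replicate B. Against STMN2-positive cells 11 of 35 members were higher and 4 lower (19.1% of all genes tested were higher and 20.8% lower). COL2A1 was higher by 2.90 ± 0.61 and COL12A1 by 1.92 ± 0.31 (log2, SE). The 8 cartilage markers summed to 368 and 282 CPM in AQP4-positive cells, with 3 of them at 0 in each D45 library, and 47.6 and 89.3 CPM in fibroblast-like cells. The list is ACAN, MATN1, MATN3, MATN4, CNMD, HAPLN1, SOX9 and COMP. Its sum, here and in CORIN-positive cells, does not say which genes carry it and does not by itself show cartilage cells. The count of 15 called members fell to 5 without D45 replicate A and 4 without D45 replicate B.

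In STMN2-positive cells COL5A2 and COL4A2 followed COL1A2 by the mean over the 6 libraries, while on D11 COL19A1 (95.8 and 107 CPM) and COL4A2 led. There were 59.3 and 63.4, 66.2 and 87.2 and 64.8 and 106 CPM of COL5A2 on D11, D28 and D45, and 89 and 88, 46.3 and 57.9 and 72.7 and 91.8 CPM of COL4A2. From D11 to D28 9 of 37 members were higher and 7 lower (6.78% of all genes tested were higher and 6.6% lower), from D28 to D45 3 and 1 (2.09% of all genes tested were higher and 1.47% lower), and from D11 to D45 18 and 6 (12% of all genes tested were higher and 13.2% lower). Other markers moved in these cells over the same time: the 8 neuron markers summed to 7353 and 7519.6 CPM on D11 and 3475 and 4252 CPM on D45, and the 6 oligodendrocyte lineage markers to 6.98 and 6.43 and 749.8 and 579 CPM. On D45, 2779 of 9384 and 2082 of 7679 cells held just 2 UMIs of STMN2. The part of these in the collagen changes was not tested. The 16 calls from D11 to D28 became 7 without D11 replicate A and 5 without D11 replicate B. The 4 calls from D28 to D45 became 15 without D28 replicate A, 18 without D28 replicate B and 0 without any 1 of the D11 or D45 libraries. The 24 calls from D11 to D45 became 14 and 12 without D11 replicate A or B, and 15 without either D45 library. COL5A3 fell from 23 and 18.3 CPM on D11 to 3.47 and 4.08 CPM on D45, and COL25A1 rose from 4.99 and 3.95 to 19.5 and 17.3 CPM (log2 fold change of 1.71 ± 0.24, SE, edgeR adjusted p = 0.00242). For COL1A1, COL3A1 and COL6A3, STMN2-positive cells of D28 and D45 held 2.13 and 0.313% and 1.43 and 3.82%, 2.45 and 0.235% and 1.5 and 2.92%, and 2.39 and 0.348% and 1.07 and 3.13% of the level in fibroblast-like cells of the same library. By the same measure the fibroblast markers outside the gate and at 50 CPM or more in fibroblast-like cells, 9, 8, 8 and 7 of them, had a median of 5.66, 2.27, 8.98 and 9.2% in the D28 A, D28 B, D45 A and D45 B libraries, with lowest values of 2.65, 0.369, 0.486 and 3.66% and highest of 22, 20.8, 31.7 and 17.7%. Over all collagens at that level, 17, 19, 18 and 18 of them, the medians were 9.27, 6.54, 6.14 and 7.87%, above the marker median in both D28 libraries and below it in both D45 libraries. The 3 collagens named here were among the lowest, while COL1A2 stood at 9.83 and 3.38% and 5.62 and 7.67%. The part of fibroblast RNA in the collagen rises in STMN2-positive cells was not tested.

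Within fibroblast-like cells 2 of 28 fitted members were higher and 2 lower on D45 than on D28 (1.44% of all genes tested were higher and 1.1% lower). COL23A1 rose from 75.7 and 76 to 1613 and 711 CPM (log2 fold change of 3.92 ± 0.50, SE, edgeR adjusted p = 0.0188), and COL6A3 from 211 and 327 to 1000.2 and 917 CPM (log2 fold change of 1.87 ± 0.36, SE, edgeR adjusted p = 0.0397). The calls of COL23A1 and COL6A3 were lost without D28 replicate A, and that of COL6A3 also without either D45 library and with the gate at 5 UMIs. The 2 members called lower rest on few UMIs. COL9A3 had 60 and 6 UMIs on D28 and 1 and 1 on D45, and COL2A1 72 and 4 and then 3 and 6 UMIs. The COL2A1 call was lost with DESeq2, with no filter on cells, without the 5% deepest cells, with the gate at 1 or 5 UMIs and without either D45 library, and the COL9A3 call without D45 replicate B. The count of 4 was 0 without D28 replicate A, 10 without D28 replicate B and 2 without either D45 library, and D28 replicate B rests on 46 cells. The change from D28 to D45 differed between fibroblast-like and STMN2-positive cells for 1 of 35 members, COL25A1, where 0.966% of all genes tested had a higher and 1.34% a lower change in fibroblast-like cells. COL25A1 had 9.97 and 12.2 CPM on D28 and 5.85 and 3.45 CPM on D45 in fibroblast-like cells, and 7.46 and 10.7 and 19.5 and 17.3 CPM in STMN2-positive cells. Its fibroblast-like levels also rest on few UMIs, 78 and 9 on D28 and 15 and 21 on D45. The difference of the changes had a log2 fold change of -2.26 ± 0.50, SE, edgeR adjusted p = 0.0413, and it kept its call in 5 of 14 alternatives. The number of members called was 0 without D28 replicate A and 4 without D45 replicate B.

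The genes that act on collagens were followed as lists. Of the collagen processing genes (hydroxylases, the chaperone SERPINH1 and the enzymes that trim the ends of chains), D45 against D11 in whole organoids had 8 of 29 fitted genes higher and 5 lower (median log2 fold change -0.02), and fibroblast-like against STMN2-positive cells had 19 of 28 fitted genes higher and 3 lower (median log2 fold change 1.34). CORIN-positive against STMN2-positive cells had 22 of 28 fitted genes higher and 1 lower (median log2 fold change 1.29). Over all genes fitted the shares were 17.3% higher and 17.4% lower for the first of these comparisons, 24.5% and 29.7% for the second and 22.8% and 24.6% for the third, and the median log2 fold changes -0.01, -0.11 and -0.05. PCOLCE, which speeds the trimming of chain ends, was higher in fibroblast-like cells by 5.19 ± 0.45 and SERPINH1 by 3.48 ± 0.22, while COLGALT2, which adds sugar to collagen, was lower by 2.31 (log2, SE where given). Of the cross-linking and fibril partners, the first 2 comparisons had 8 of 19 fitted genes higher and 0 lower (median log2 fold change 1.03) and 16 of 17 fitted genes higher and 0 lower (median log2 fold change 3.32). CORIN-positive against STMN2-positive cells had 11 of 17 higher and 0 lower. AQP4-positive against STMN2-positive cells had 11 of 17 higher and 2 lower, where 19.1% of all genes were higher and 20.8% lower. Fibroblast-like cells had 12 of 17 higher and 0 lower against each of those gates, where 16.6% (AQP4) and 19.1% (CORIN) of all genes were higher. OGN and FBLN1 of this list are also among the fibroblast markers. DPT rose from D11 to D45 by 7.22 ± 1.53 and OGN by 4.14 ± 0.58 (log2, SE), both small proteins that bind fibrils.

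The other lists are set against the same shares over all genes, 17.3% higher and 17.4% lower from D11 to D45 in whole organoids and 24.5% and 29.7% in fibroblast-like against STMN2-positive cells. The collagen receptors had 4 of 12 fitted genes higher and 4 lower (median log2 fold change -0.01) in whole organoids from D11 to D45 and 5 of 11 fitted genes higher and 3 lower (median log2 fold change 0.40) in fibroblast-like against STMN2-positive cells. ADGRG1, a receptor for type III collagen in the developing cortex, rose by 1.71 ± 0.20 in whole organoids and was lower in fibroblast-like cells by 2.57, while DDR2, a fibril-binding receptor kinase, was higher there by 2.66 ± 0.20 (log2, SE). The basement membrane partners of type IV collagen had 5 of 14 fitted genes higher and 3 lower (median log2 fold change 0.35) and 9 of 14 fitted genes higher and 0 lower (median log2 fold change 1.80), with the linker NID1 higher by 4.17 ± 0.77 and 5.82 ± 0.92 (log2, SE), and the laminin chain LAMA5 lower from D11 to D45 by 1.54. The collagen breakdown genes had 6 of 15 fitted genes higher and 0 lower (median log2 fold change 1.14) and 8 of 12 fitted genes higher and 2 lower (median log2 fold change 2.07), among them the protease FAP (4.08 ± 0.85 and 5.18 ± 0.49) and, in the second comparison, MMP14 (3.85 ± 0.18; log2, SE). Against STMN2-positive cells the breakdown genes had 7 of 12 higher and 2 lower in AQP4-positive cells. In CORIN-positive cells they had 6 of 12 higher and 2 lower. The partners of type IV collagen had 4 of 14 higher and 3 lower (AQP4) and 5 and 1 (CORIN). The receptors had 4 of 11 higher and 1 lower (AQP4) and 4 and 3 (CORIN). Shares over all genes higher and lower were 19.1% and 20.8% (AQP4) and 22.8% and 24.6% (CORIN).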

How the data were processed

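The authors ran Cell Ranger 8.0.1, per the file headers, on the Sscrofa11.1 genome and deposited UMI counts per gene and cell, 30477 genes of which 16266 have a symbol. The submitters' processing notes also name Seurat 4.3.0. Gene names for 844 further identifiers came from the reference. The notes give no strand setting, and 3' reads are stranded by the assay. Cells were kept with 200 to 7000 detected genes and at most 10% of UMIs from 13 named mitochondrial genes, which left 103519 of 104820 barcodes. Doublets were not called; cells passing more than 1 gate were left out, and the 5% deepest cells were left out as an alternative. UMIs were summed per library, or per library and gate with at least 20 cells, and tested with edgeR 4.0.16 (quasi-likelihood, TMM scaling, filterByExpr, Benjamini-Hochberg over all genes fitted) in R 4.3.3, with day as the term, or gate with library as a block. DESeq2 1.42.0 was an alternative. Depth was 106851387 to 180098372 UMIs per library, where 0.107 CPM of COL6A5 in D11 replicate A was 17 UMIs. Sums per gate were shallower. The fibroblast-like sum of D28 replicate B held 736551 UMIs, and 1.36 CPM of COL4A4 there was 1 UMI.

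The collagen genes, gates and lists were chosen with earlier results of these data known. Every member is named, with values in each library for the 12 highest in whole organoids and the 3 highest outside the gate genes in each gate. Of the lists, the named genes were among the 3 with the largest change in a direction. The test was tried on simulated counts. COL6A2, COL7A1, COL9A2 and COL20A1 were not analysed here.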

Additional observations from a re-analysis of the deposited data

Results flagged for a closer look

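COL25A1 was the member whose change from D28 to D45 differed between fibroblast-like and STMN2-positive cells in the edgeR test of that difference, by -2.26 ± 0.50 on the log2 scale (SE, edgeR adjusted p = 0.0413). Its level in fibroblast-like cells went from 9.97 and 12.2 to 5.85 and 3.45 CPM, and in STMN2-positive cells from 7.46 and 10.7 to 19.5 and 17.3 CPM. The fibroblast-like levels rest on few UMIs, 78 and 9 on D28 and 15 and 21 on D45. Over 14 alternatives the difference lay between -2.45 and -1.85, and it lost its call in 9 of them.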

How the results depend on the processing

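Counts of called members with each library left out in turn were 5 to 29 of 21 for whole organoids from D11 to D28, 0 to 18 of 7 for whole organoids from D28 to D45, 17 to 30 of 27 for whole organoids from D11 to D45, 5 to 24 of 16 for STMN2-positive cells from D11 to D28, 0 to 18 of 4 for STMN2-positive cells from D28 to D45, 12 to 28 of 24 for STMN2-positive cells from D11 to D45, 16 to 23 of 20 for CORIN-positive cells from D11 to D28, 0 to 10 of 4 for fibroblast-like cells from D28 to D45, 25 to 27 of 28 for fibroblast-like against STMN2-positive cells, 19 to 28 of 28 for fibroblast-like against AQP4-positive cells, 20 to 23 of 23 for fibroblast-like against CORIN-positive cells, 4 to 16 of 15 for AQP4-positive against STMN2-positive cells, 15 to 17 of 16 for CORIN-positive against STMN2-positive cells, 0 to 4 of 1 for the fibroblast-like minus STMN2-positive difference in change. Without the fibroblast-like cells the counts were 11 against 7 in whole organoids from D28 to D45. Without cells with a UMI of LUM or DCN the counts were 13 against 7 in whole organoids from D28 to D45. With DESeq2 the counts were 12 against 4 in STMN2-positive cells from D28 to D45. With no filter on low counts the counts were 11 against 4 in STMN2-positive cells from D28 to D45. With the gate at 5 UMIs the counts were 2 against 4 in STMN2-positive cells from D28 to D45, 2 against 4 in fibroblast-like cells from D28 to D45. With day as a term and no library block the counts were 9 against 15 in AQP4-positive against STMN2-positive cells. The fibroblast-like minus STMN2-positive difference in change, 1 call as reported, had 2 with DESeq2, 13 with no filter on low counts, 0 with the gate at 5 UMIs, 0 with no filter on cells, 2 without the 5% deepest cells, 2 with the gate at 1 UMI, 3 with the fibroblast-like gate on LUM and DCN only, 2 with cells in more than 1 gate kept, 0 with the gate on cells thinned to 2000 UMIs. Over the 234 single calls, 3157 of 3565 alternatives kept the call, 405 lost it and 3 turned the sign: COL23A1 from D11 to D45 was -0.69 without LUM or DCN cells, COL4A6 in fibroblast-like against STMN2-positive cells was 0.72 with the thinned gate, and COL15A1 in AQP4-positive against STMN2-positive cells was 0.030 with the gate at 1 UMI. The cause was not tested.

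With the letter as a replicate block the counts were 18 for whole organoids from D11 to D28, 4 for whole organoids from D28 to D45, 26 for whole organoids from D11 to D45, 15 for STMN2-positive cells from D11 to D28, 1 for STMN2-positive cells from D28 to D45, 20 for STMN2-positive cells from D11 to D45, 22 for CORIN-positive cells from D11 to D28, 6 for fibroblast-like cells from D28 to D45. The labels do not say what the letters share, and the A minus B differences correlated across 15699 genes at -0.565 (D11 with D28), 0.215 (D11 with D45) and -0.372 (D28 with D45), so the letters were not taken to pair the libraries.

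AQP4-positive cells could not be compared between D28 and D45, with 16 and 8 cells on D28, except with cells in more than 1 gate kept. With 2 libraries per day a 2-fold change is often missed: in simulated counts for D11 to D28 in whole organoids (22032 genes), 16.4% of genes changed 2-fold and 87.8% of those changed 4-fold were found. The simulation used 1 common spread for all genes and days. These percentages therefore need not hold for members that differ more between libraries, such as COL1A1 with 209 and 33.1 CPM on D28.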

Other observations

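COL24A1, a fibrillar chain that the deposited table gives by identifier only (ENSSSCG00000031738), did not pass the test in fibroblast-like cells: it had 7.8 and 61.1 CPM on D28 and 274 and 155 CPM on D45 (log2 fold change 3.03 ± 0.76, SE, edgeR adjusted p = 0.0749).

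The AQP4-positive cells of D28, 16 and 8 in number and too few to be tested without the cells in more than 1 gate, carried COL14A1 at 378 and 230.4 CPM and COL2A1 at 24 and 362 CPM. With those cells kept the log2 fold changes from D28 to D45 were -4.24 ± 0.53 and -2.73 ± 0.37 (SE). In the same fit COL1A1 and COL3A1 were also lower on D45, by -2.27 ± 0.27 and -2.05 ± 0.36 (log2, SE). COL4A4 was higher by 2.85 ± 0.49 and COL21A1 by 12.4 ± 1.23 (log2, SE). COL21A1 had 0 UMIs in the 16 and 8 cells of D28. Over the D28 and D45 libraries of this gate, fibroblast markers summed to 424 to 1105 CPM, mitotic markers to 129 to 1955 CPM and muscle markers to 3.59 to 405 CPM. Their part in these levels was not tested.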
